A study of Homo sapiens with 12 samples.

Results

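The unfolded protein response of the endoplasmic reticulum (ER) was followed through 10 of its genes in MDA-MB-468, a triple-negative human breast cancer cell line. HSPA5, HSP90B1, HERPUD1, XBP1, ERN1, DNAJB9, SDF2L1, PDIA4, CALR and EDEM1 were taken by symbol from the deposited count tables, where they make up 10 of 58735 entries. All 10 passed the filter on low counts and were among the 17780 genes tested. They held between 0.209% of the counts in the combination and 0.230% at 24 h of docetaxel as group means.

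Poly(A) RNA was sequenced in 12 libraries, 3 per group, from cells labelled wild type. The first group, called Combo in the labels, received 5 µM tazemetostat, an inhibitor of the histone methyltransferase EZH2, with 5 µM ipatasertib, an inhibitor of the kinase AKT, for 24 h. Its cells sat in 6 cm plates in medium with 2% serum, after 5 days in which the protocol names either tazemetostat or DMSO. Docetaxel, a taxane that stabilises microtubules, was given at 10 nM in 10 cm plates for 24 h in the second group and for 8 h in the third. The fourth group was labelled DMSO, the vehicle. Its hours, serum and plate are not stated, so treatment and culture conditions cannot be told apart where a group is set against DMSO. All groups come from 1 cell line, and nothing in the labels says that libraries A, B and C are separate cultures. What the p-values measure is then the scatter among such libraries, possibly technical only.

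Proteins that fail to fold in the ER lumen are sensed by 3 membrane proteins, IRE1 (the product of ERN1), ATF6 and PERK (the product of EIF2AK3). IRE1 splices the XBP1 mRNA into the form that encodes an active transcription factor. ATF6 is cut in the Golgi by the proteases MBTPS1 and MBTPS2 to release another, and PERK slows translation while favouring that of ATF4. Their targets are chaperones, disulfide isomerases and the machinery that extracts misfolded proteins for degradation, and the response sets folding capacity in secretory epithelia such as the mammary gland.

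Total counts lay between 29820617 and 45807059 per library. The unit CPM stands for TMM-normalised counts at 1 shared library size. Means carry the SD of 3 libraries, and fold changes are log2 values ± SE. Adjusted p comes from the quasi-likelihood test of edgeR, corrected by Benjamini-Hochberg over all genes tested, with a threshold of 0.05. The epithelial markers EPCAM, CDH1, KRT8, KRT18 and EGFR all averaged 86.9 CPM or more in every group. Group means of the hormone receptors ESR1 and PGR were at or below 1.86 CPM. PTPRC, PECAM1 and COL1A2, markers of leukocytes, endothelium and fibroblasts, had group means at or below 0.228 CPM, with COL1A2 at 0 in DMSO. COL1A1, by contrast, averaged between 12.6 and 21.6 CPM. Genes of the mitochondrial genome took 8.49% ± 0.799 of the counts in Combo, 6.39% ± 1.28 at 24 h of docetaxel and 8.55% ± 0.409 at 8 h, against 4.21% ± 0.244 in DMSO (SD, n = 3 each). Scaling to library totals instead of TMM moved the median log2 fold change of all genes by -0.16 for docetaxel at 8 h against DMSO, by 0.13 for 24 h against 8 h and by 0.12 for Combo against 8 h. At 8 h against DMSO 3994 genes were higher and 4415 lower with TMM, and 2288 were higher and 6784 lower with library totals. At 24 h against 8 h the counts were 2947 higher and 3261 lower with TMM, and 5392 and 1655 with library totals.

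The promoters are shown first because the group is known for a shared control sequence, the ER stress element (ERSE). It consists of a box bound by the factor NF-Y and a box bound by ATF6, and a shorter form, ERSE-II, holds both boxes in another arrangement. Windows of 300 bases, 250 before the annotated start of the RNA and 50 after it, were taken from RefSeq (GRCh38.p14), and all 10 genes were matched, with 12 windows. RefSeq starts can differ from those of the annotation used for gene positions. Both strands were searched for exact matches. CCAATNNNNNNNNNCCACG, the ERSE, occurred in 27 of 35116 windows (0.077%), among them those of HSPA5, HSP90B1, XBP1 and CALR. ATTGGNCCACG, the ERSE-II, occurred in 19 windows (0.054%), among them those of HERPUD1 and SDF2L1. TGACGTG, the core of the element bound by XBP1 and ATF6 (UPRE), occurred in 692 windows (1.97%) and in none of the 10 genes' windows. The ERSE and ERSE-II contain the boxes CCAAT (NF-Y), found in 34.6% of all windows and in at least 1 window of 10 genes, and CCACG (ATF6), found in 38.1% of all windows and in windows of 9 genes. Of the other pathway genes described below, 89 were matched to windows. The ERSE occurred in 4 of them, CRELD2 and ERO1B included, the ERSE-II in 1, HYOU1, and the UPRE in 15. Elements with mismatches were not searched.

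The 7 matches are printed 5′ to 3′ in the direction of the element, with the boxes in capitals.
HSPA5, chr9:125241391-125241409, minus strand: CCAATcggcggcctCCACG
HSP90B1 upstream copy, chr12:103930216-103930234, plus strand: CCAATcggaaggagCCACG
HSP90B1 downstream copy, chr12:103930321-103930339, minus strand: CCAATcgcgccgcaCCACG
XBP1, chr22:28800603-28800621, minus strand: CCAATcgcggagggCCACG
CALR, chr19:12938384-12938402, minus strand: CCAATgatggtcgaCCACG
HERPUD1, chr16:56932025-56932035, plus strand: ATTGGgCCACG
SDF2L1, chr22:21642114-21642124, minus strand: ATTGGtCCACG
The element lay 52 bases before the annotated start in XBP1, 66 in HSPA5, 117 in HERPUD1, 188 in SDF2L1 and 225 in CALR, counted from its leftmost base. HSP90B1 held 2 copies, 194 and 89 bases before the start, in opposite directions.

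Whole windows are printed for 4 genes, the 2 with an element that had the largest rises at 8 h of docetaxel (SDF2L1 and HSPA5) and the 2 with the largest falls (HERPUD1 and XBP1), each on the gene's own strand with the element's boxes in capitals.
HSPA5, chr9:125241294-125241593, minus strand: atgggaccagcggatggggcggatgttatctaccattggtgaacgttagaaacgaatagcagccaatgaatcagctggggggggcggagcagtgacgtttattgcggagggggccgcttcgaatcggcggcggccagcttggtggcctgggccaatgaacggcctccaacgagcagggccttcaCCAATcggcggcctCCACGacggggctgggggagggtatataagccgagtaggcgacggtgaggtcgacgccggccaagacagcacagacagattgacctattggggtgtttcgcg
SDF2L1, chr22:21642052-21642351, plus strand: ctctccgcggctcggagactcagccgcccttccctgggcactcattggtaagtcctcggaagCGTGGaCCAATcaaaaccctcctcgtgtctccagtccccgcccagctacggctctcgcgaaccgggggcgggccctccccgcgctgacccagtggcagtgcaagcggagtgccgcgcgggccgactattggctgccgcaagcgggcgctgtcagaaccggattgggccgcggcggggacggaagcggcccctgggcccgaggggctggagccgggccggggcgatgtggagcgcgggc
HERPUD1, chr16:56931892-56932191, plus strand: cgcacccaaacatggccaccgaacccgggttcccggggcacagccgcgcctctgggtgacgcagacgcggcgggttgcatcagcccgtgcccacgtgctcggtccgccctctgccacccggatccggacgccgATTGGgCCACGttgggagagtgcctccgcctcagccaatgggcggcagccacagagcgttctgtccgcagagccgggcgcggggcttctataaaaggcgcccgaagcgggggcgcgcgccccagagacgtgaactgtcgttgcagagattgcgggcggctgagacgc
XBP1, chr22:28800520-28800819, minus strand: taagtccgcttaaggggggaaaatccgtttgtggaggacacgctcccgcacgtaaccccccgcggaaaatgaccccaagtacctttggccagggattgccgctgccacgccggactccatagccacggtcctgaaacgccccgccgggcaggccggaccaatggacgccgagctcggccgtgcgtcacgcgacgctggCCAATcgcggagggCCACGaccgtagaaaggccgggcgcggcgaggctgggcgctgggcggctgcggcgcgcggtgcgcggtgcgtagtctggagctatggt
Both directions of change at 8 h, given below, occurred among genes with each form: HSPA5 and CALR rose and XBP1 fell with the ERSE, while SDF2L1 rose and HERPUD1 fell with the ERSE-II. HSP90B1, also with the ERSE, was not past the threshold, and the CALR call was lost with library totals (adjusted p = 0.281). Whether the elements play a part in these changes was not tested. A match of letters is no evidence of binding, and no exact match in the windows of ERN1, DNAJB9, PDIA4 and EDEM1 says only that these letters are not there.

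**Figure D1:**
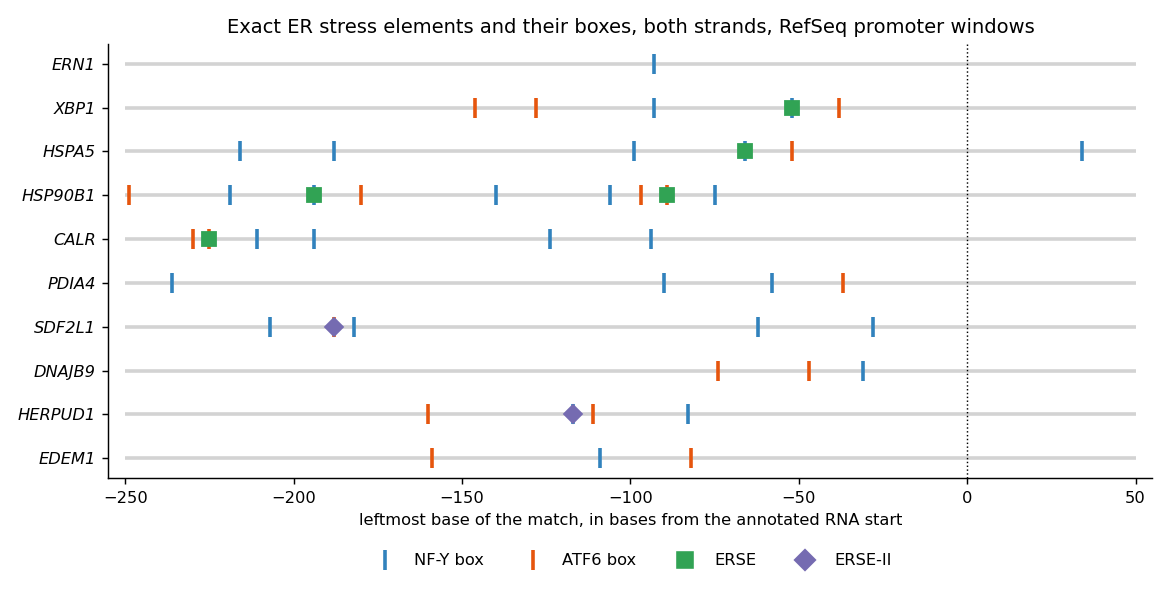
Positions of exact elements and of their boxes in the first RefSeq window of each gene, with the leftmost base of each match in bases from the annotated start on the x axis and 1 gene per line. Squares mark the ERSE in XBP1, HSPA5, HSP90B1 and CALR, diamonds the ERSE-II in SDF2L1 and HERPUD1, and ticks the single boxes on either strand.

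Docetaxel at 8 h against DMSO, the earliest time sampled, split the 10 genes. SDF2L1, PDIA4, HSPA5 and CALR rose, while HERPUD1, XBP1, ERN1, DNAJB9 and EDEM1 fell and HSP90B1 was not past the threshold. Thus 4 of 10 rose, where 22.5% of all genes tested were called higher, and 5 of 10 fell, where 24.8% were called lower. The median log2 fold change of the 10 genes was -0.08, beside -0.02 over all genes. With library totals 3 of the 10 rose and 5 fell, beside 2288 higher and 6784 lower of all 17780 genes. In bulk RNA, fewer cells of a type and less RNA per cell cannot be told apart.

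At 24 h of docetaxel 2 of the 10 genes were higher than in DMSO, HSPA5 and DNAJB9, where 20.2% of all genes were called higher. None of the 10 was lower, where 22.7% of all genes were called lower. None was lower at an unadjusted p under 0.05 either, nor by DESeq2. The median was 0.03, beside 0.01 over all genes.

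In Combo against DMSO, ERN1, DNAJB9, HSPA5 and EDEM1 were higher, 4 of 10 genes, where 31.4% of all genes were called higher. SDF2L1, HERPUD1, CALR and PDIA4 were lower, also 4 of 10, where 31.4% were called lower. With library totals the split was 3 higher and 5 lower, beside 5170 higher and 6013 lower of all 17780 genes. The median was -0.05, beside 0.01 over all genes. All 3 comparisons use the same DMSO libraries.

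**Figure D2:**
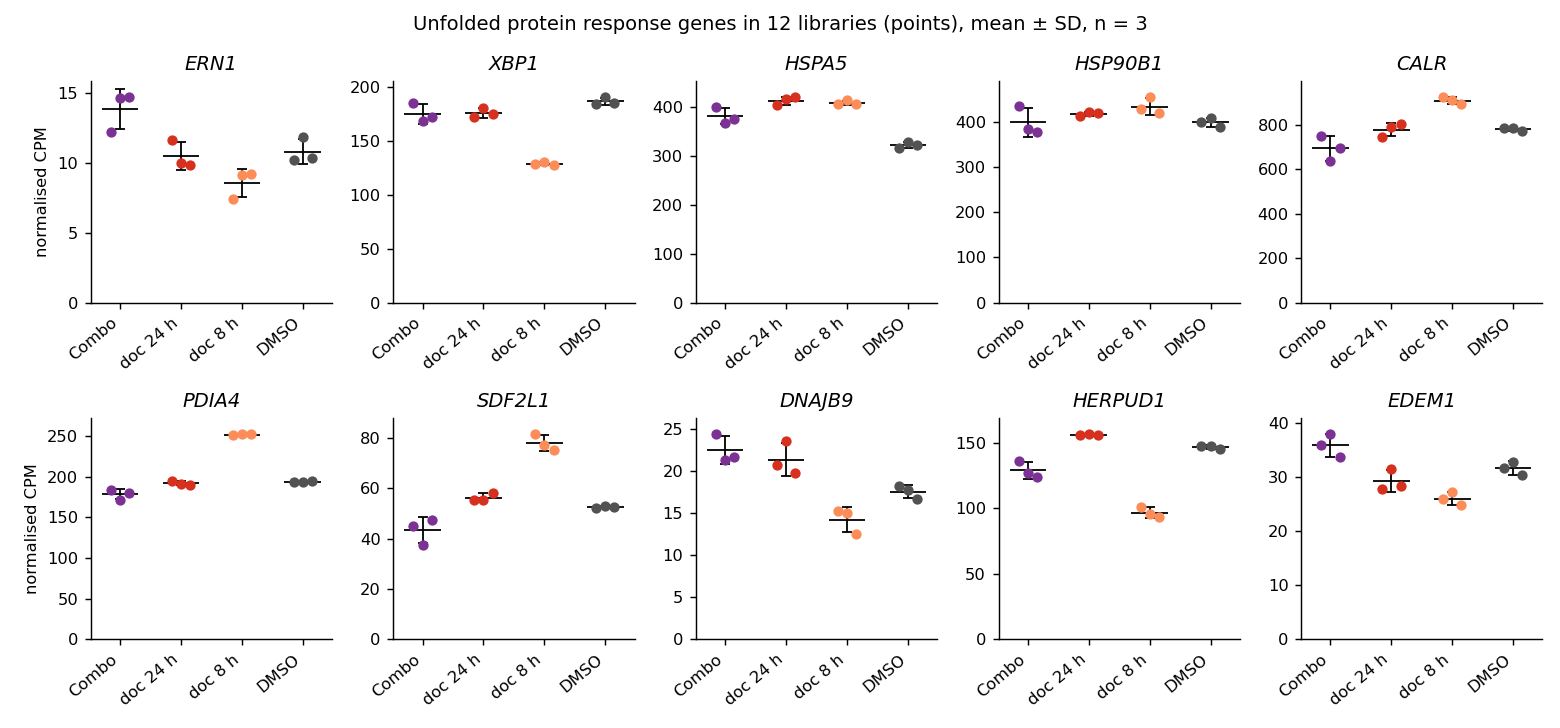
Normalised CPM (y axis, starting at 0) of the 10 genes in each library, with points for the 3 libraries of Combo, docetaxel 24 h, docetaxel 8 h and DMSO, and bars for the mean ± SD. At 8 h of docetaxel PDIA4 and SDF2L1 sit above all other libraries, and XBP1 and HERPUD1 below all other libraries.

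ERN1 (chr17:64039142-64130819, minus strand) encodes IRE1, the sensor that cuts XBP1 mRNA. It was the least abundant of the 10 genes per exon length, at 0.993 CPM per kb in DMSO. Libraries A, B and C had 12.2, 14.6 and 14.6 CPM in Combo, 11.6, 9.95 and 9.82 CPM at 24 h of docetaxel and 7.41, 9.12 and 9.16 CPM at 8 h, against 10.2, 11.8 and 10.3 CPM in DMSO. All Combo libraries lay above all DMSO libraries and all 8 h libraries below them, while the 24 h libraries overlapped DMSO. The difference was 0.36 ± 0.10 in Combo (adjusted p = 0.0036) and -0.33 ± 0.11 at 8 h (adjusted p = 0.0122). At 8 h the call was lost without DMSO library B (adjusted p = 0.1) or without 8 h library A (adjusted p = 0.0885). At 24 h it was -0.04 ± 0.10 (adjusted p = 0.767).

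XBP1 (chr22:28794555-28800597, minus strand) encodes the transcription factor whose mRNA IRE1 splices. Counts per gene do not separate the spliced from the unspliced form. XBP1 had 186, 168 and 172 CPM in Combo, 172, 181 and 175 CPM at 24 h and 129.0, 131 and 128 CPM at 8 h, against 185, 190.4 and 186 CPM in DMSO. The 8 h libraries were the 3 lowest of 12, and the other 9 lay between 168 and 190.4 CPM. XBP1 fell by 0.53 ± 0.05 on the log2 scale at 8 h against DMSO (adjusted p = 5.16e-09), and 12.5% of all genes tested had a lower value in that comparison. It was -0.09 ± 0.05 in Combo (adjusted p = 0.0877) and -0.09 ± 0.05 at 24 h (adjusted p = 0.145), neither past the threshold, although with library totals the Combo value was -0.13 (adjusted p = 0.0133).

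HSPA5 (chr9:125234853-125241330, minus strand) encodes BiP, the ER member of the heat shock protein 70 family, which binds unfolded chains and keeps the sensors inactive. It was the only one of the 10 genes past the threshold in the same direction in all 3 comparisons with DMSO. Its libraries held 398, 367 and 375 CPM in Combo, 403, 415 and 418 CPM at 24 h and 404, 412 and 405 CPM at 8 h, against 315, 328 and 321 CPM in DMSO. Each of the 9 treated libraries exceeded all DMSO libraries. The rise was 0.24 ± 0.05 in Combo (adjusted p = 7.53e-05), 0.36 ± 0.05 at 24 h (adjusted p = 1.78e-06) and 0.34 ± 0.05 at 8 h (adjusted p = 1.99e-06). Between 24 h and 8 h the difference was 0.02 ± 0.05 (adjusted p = 0.815), and with library totals it was 0.15 (adjusted p = 0.00714).

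HSP90B1 (chr12:103930107-103953645, plus strand) encodes GRP94, the ER form of heat shock protein 90. Libraries had 436, 384 and 378 CPM in Combo, 413, 422 and 419 CPM at 24 h and 429, 454 and 419 CPM at 8 h, against 399.7, 408 and 389 CPM in DMSO. The 8 h and the 24 h libraries all lay above DMSO, by little, and Combo overlapped it. No comparison passed the threshold: 0.00 ± 0.05 in Combo (adjusted p = 0.976), 0.07 ± 0.05 at 24 h (adjusted p = 0.338) and 0.12 ± 0.05 at 8 h (adjusted p = 0.0654). The last of these passed with DESeq2 (adjusted p = 0.0307), with median-of-ratios factors (adjusted p = 0.0463), with only the 2 groups in the fit (adjusted p = 0.0236) and without DMSO library B (adjusted p = 0.0391), and with library totals its sign turned, to -0.03. Pseudogene copies took few reads, 64 counts for HSP90B2P and 0 for HSP90B3P over all 12 libraries.

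CALR (chr19:12938578-12944489, plus strand) encodes calreticulin, a lectin chaperone of glycoproteins that also buffers calcium, and was the most abundant per exon length, at 287.8 CPM per kb in DMSO. Libraries had 749, 638 and 696 CPM in Combo, 744, 788 and 803 CPM at 24 h and 924, 910.5 and 893 CPM at 8 h, against 785, 784 and 774 CPM in DMSO. The 8 h libraries were the highest and the Combo libraries all lay below DMSO. It rose by 0.22 ± 0.05 at 8 h (adjusted p = 0.00177), a call lost with library totals, where the value was 0.06 (adjusted p = 0.281). It fell by 0.17 ± 0.05 in Combo (adjusted p = 0.00905), a call lost without Combo library B (adjusted p = 0.0751). At 24 h the value was -0.00 ± 0.05 (adjusted p = 0.960).

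PDIA4 (chr7:149003062-149028641, minus strand) encodes ERp72, a disulfide isomerase. It had 183, 172 and 180.5 CPM in Combo, 195, 191 and 190.3 CPM at 24 h and 251, 252 and 252 CPM at 8 h, against 194, 194 and 195 CPM in DMSO. The 8 h libraries differed among themselves by an SD of 0.83 CPM and lay above the other 9. The gene rose by 0.38 ± 0.04 at 8 h (adjusted p = 2.61e-07), and was -0.02 ± 0.04 at 24 h (adjusted p = 0.812). The fall in Combo was -0.12 ± 0.04 (adjusted p = 0.0205), and it was lost without Combo library B (adjusted p = 0.0883), DMSO library A (adjusted p = 0.0523) or DMSO library C (adjusted p = 0.0635).

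SDF2L1 (chr22:21642261-21644298, plus strand) encodes a small ER protein found with the BiP cochaperone DNAJB11. It had 45.02, 37.5 and 47.4 CPM in Combo, 55.4, 55.3 and 58.2 CPM at 24 h and 81.5, 77.2 and 75.3 CPM at 8 h, against 52.1, 53.1 and 52.7 CPM in DMSO. The 4 groups did not overlap each other, with 8 h highest and Combo lowest. Its rise of 0.57 ± 0.06 at 8 h (adjusted p = 1.72e-07) was the largest of the 10 genes against DMSO, and 92.2% of all genes tested had a lower value. It fell by 0.28 ± 0.07 in Combo (adjusted p = 0.000686) and was 0.10 ± 0.06 at 24 h (adjusted p = 0.234).

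DNAJB9 (chr7:108569568-108574850, plus strand) encodes ERdj4, a cochaperone that recruits BiP to IRE1. It had 24.4, 21.3 and 21.7 CPM in Combo, 20.8, 23.6 and 19.8 CPM at 24 h and 15.3, 14.99 and 12.5 CPM at 8 h, against 18.2, 17.8 and 16.8 CPM in DMSO. Combo and 24 h libraries lay above all DMSO libraries and 8 h libraries below them. The values were 0.36 ± 0.08 in Combo (adjusted p = 0.000693), 0.28 ± 0.08 at 24 h (adjusted p = 0.00854) and -0.30 ± 0.09 at 8 h (adjusted p = 0.00615). The 24 h call was lost without 24 h library B (0.20, adjusted p = 0.0708) and the 8 h call without 8 h library C (adjusted p = 0.0559). On the opposite strand THAP5 shares 6.45% and PNPLA8 3.49% of the exon bases of DNAJB9, and the strand setting of the counting is not given. THAP5 was 0.29 at 24 h (adjusted p = 0.000963) and 0.18 at 8 h (adjusted p = 0.0275) against DMSO, and PNPLA8 was -0.28 at 8 h (adjusted p = 0.000121). Their part in the DNAJB9 values was not tested.

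HERPUD1 (chr16:56932048-56944863, plus strand) encodes a membrane protein of the complex that retrotranslocates misfolded proteins. Libraries had 136, 127 and 124 CPM in Combo, 156, 157 and 156 CPM at 24 h and 101, 95.4 and 93.7 CPM at 8 h, against 147, 148 and 145 CPM in DMSO. No 2 groups overlapped: 24 h was highest, then DMSO, Combo and 8 h. The fall of 0.60 ± 0.05 on the log2 scale at 8 h (adjusted p = 1.19e-09) was the largest of the 10 genes against DMSO. In Combo the gene fell by 0.19 ± 0.05 (adjusted p = 0.00159). At 24 h the value was 0.09 ± 0.05 (adjusted p = 0.135), although the libraries did not overlap, and it passed with only the 2 groups in the fit (adjusted p = 0.0396).

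EDEM1 (chr3:5187646-5219957, plus strand) encodes a lectin that hands mannose-trimmed glycoproteins to degradation. It had 36.0, 38.0 and 33.7 CPM in Combo, 27.8, 31.6 and 28.5 CPM at 24 h and 26.04, 27.2 and 24.9 CPM at 8 h, against 31.7, 32.9 and 30.4 CPM in DMSO. Combo libraries were the highest and 8 h libraries the lowest. It fell by 0.28 ± 0.07 at 8 h (adjusted p = 0.00119), and was -0.11 ± 0.06 at 24 h (adjusted p = 0.170). The rise of 0.18 ± 0.06 in Combo (adjusted p = 0.0163) was lost without Combo library B (adjusted p = 0.0937) or DMSO library C (adjusted p = 0.0771), with library totals (adjusted p = 0.0640) and with no filter (adjusted p = 0.0949).

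**Figure D3:**
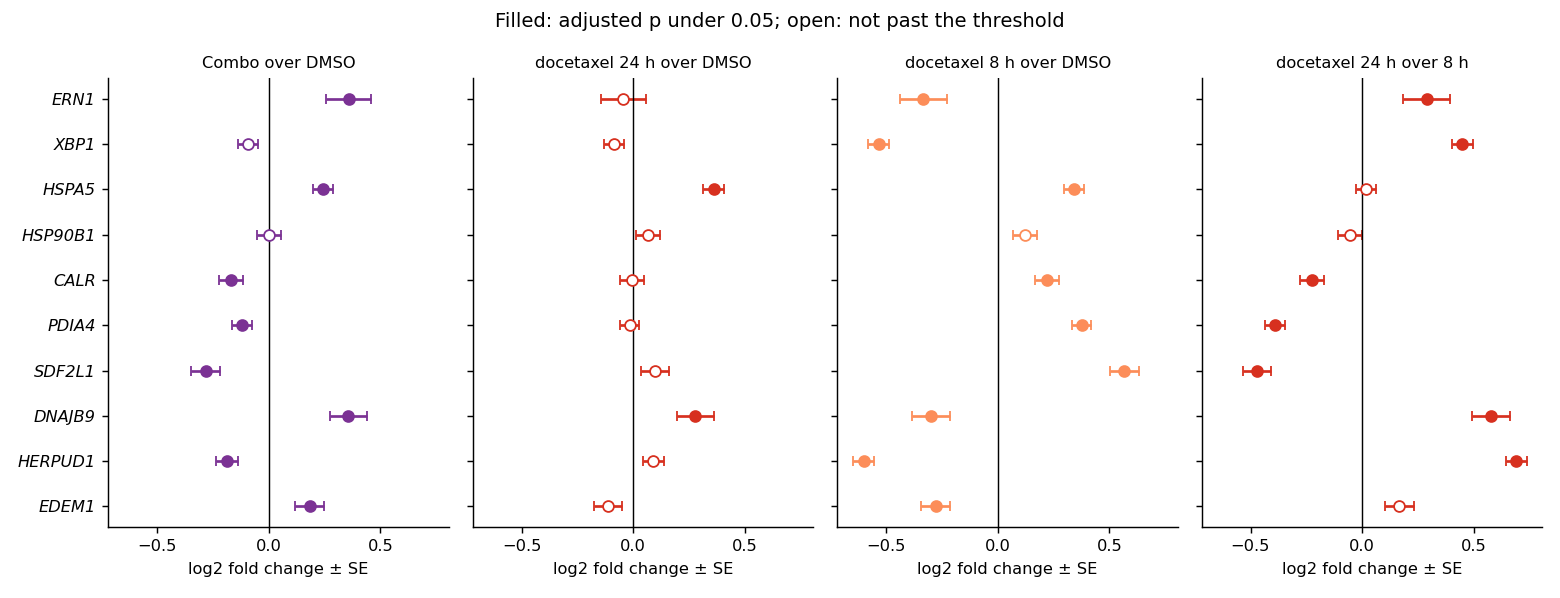
Log2 fold change ± SE (x axis) of the 10 genes for Combo, docetaxel 24 h and docetaxel 8 h over DMSO, and for docetaxel 24 h over 8 h, with filled points past an adjusted p of 0.05. In the panel of 8 h over DMSO 4 genes sit right of 0 and 5 left of it among the filled points, while HSPA5 and DNAJB9 are the filled points of 24 h over DMSO.

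The 2 docetaxel times were compared to see which of the 10 genes moved between them. HERPUD1, DNAJB9, XBP1 and ERN1 were higher at 24 h than at 8 h, 4 of 10 genes, where 16.6% of all genes were called higher. SDF2L1, PDIA4 and CALR were lower, 3 of 10, where 18.3% were called lower. With library totals 6 were higher and 2 lower, beside 5392 higher and 1655 lower of all 17780 genes. CALR was not among these lower calls, at -0.09 (adjusted p = 0.137). The values were 0.69 ± 0.05 for HERPUD1 (adjusted p = 1.70e-10), 0.58 ± 0.08 for DNAJB9 (adjusted p = 1.19e-05), 0.45 ± 0.05 for XBP1 (adjusted p = 1.19e-07) and 0.29 ± 0.11 for ERN1 (adjusted p = 0.0371). The ERN1 call was lost without 8 h library A (adjusted p = 0.202) or 24 h library A (adjusted p = 0.176). SDF2L1 was -0.47 ± 0.06 (adjusted p = 3.92e-06), PDIA4 -0.39 ± 0.04 (adjusted p = 2.56e-07) and CALR -0.22 ± 0.05 (adjusted p = 0.00231). Each of these 7 genes was also past the threshold at 8 h against DMSO, with the opposite sign, and the 2 comparisons share the 8 h libraries. EDEM1 was 0.17 ± 0.07 (adjusted p = 0.0537) and passed with library totals, at 0.30 (adjusted p = 0.00168).

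Combo was set against docetaxel at 24 h, the same number of hours with another drug. ERN1 (0.40 ± 0.10, adjusted p = 0.00136) and EDEM1 (0.30 ± 0.06, adjusted p = 0.000349) were higher in Combo, 2 of 10 genes, where 32.1% of all genes were called higher. SDF2L1 (-0.38 ± 0.07) and HERPUD1 (-0.28 ± 0.05), both with an adjusted p of 2.37e-05, CALR, HSPA5 and PDIA4 were lower, 5 of 10, where 31.7% were called lower. The last 3 were small, at -0.16 ± 0.05 for CALR (adjusted p = 0.0106), -0.12 ± 0.05 for HSPA5 (adjusted p = 0.0309) and -0.10 ± 0.04 for PDIA4 (adjusted p = 0.0408). Without Combo library B none of these 3 passed (adjusted p = 0.0937, 0.126 and 0.165 in that order), and each was lost without other libraries too. DNAJB9 was 0.08 ± 0.08 (adjusted p = 0.421) and XBP1 -0.01 ± 0.05 (adjusted p = 0.907). Plates, and perhaps serum and days of culture, differ between these groups along with the drugs.

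Against docetaxel at 8 h, Combo had higher ERN1 (0.69 ± 0.10), DNAJB9 (0.65 ± 0.09), EDEM1 (0.46 ± 0.07), XBP1 (0.44 ± 0.05) and HERPUD1 (0.41 ± 0.05), 5 of 10 genes, where 34.3% of all genes were called higher. It had lower SDF2L1 (-0.85 ± 0.07, adjusted p = 6.70e-11), PDIA4 (-0.50 ± 0.04) and CALR (-0.39 ± 0.05), 3 of 10, where 32.1% were called lower. The hours of treatment differ here as well as the drugs. HSPA5 was -0.10 ± 0.05 (adjusted p = 0.0609) and HSP90B1 -0.12 ± 0.05 (adjusted p = 0.0531), neither past the threshold. In that order, both passed with DESeq2 (adjusted p = 0.0257 and 0.0368) and with no filter (adjusted p = 0.0453 and 0.0164). Both also passed without Combo library A (adjusted p = 0.0142 and 0.0019), and HSP90B1 in further settings. With library totals the sign of HSPA5 turned, to 0.0177 (adjusted p = 0.725).

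Ordered by mean level, the 10 genes did not share 1 order of the groups. The 8 h group stood highest for SDF2L1, PDIA4, CALR and HSP90B1 and lowest for XBP1, HERPUD1, ERN1, DNAJB9 and EDEM1. Combo stood highest for ERN1, DNAJB9 and EDEM1 and lowest for SDF2L1, PDIA4 and CALR, and DMSO was highest for XBP1 and lowest for HSPA5 and HSP90B1. Neighbours in the order that were not past the threshold included Combo and 24 h for DNAJB9 and for XBP1, 24 h and 8 h for HSPA5, 24 h and DMSO for CALR, PDIA4, SDF2L1, HERPUD1, XBP1, ERN1 and EDEM1, and all neighbours for HSP90B1.

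Ratios of raw counts within a library need no scaling between libraries. A pair of ratios was chosen after the values were seen and is given without a test. HSPA5 to HERPUD1 was 2.93, 2.89 and 3.02 in Combo, 2.58, 2.65 and 2.69 at 24 h and 3.99, 4.32 and 4.32 at 8 h, against 2.14, 2.21 and 2.21 in DMSO. PDIA4 to XBP1 was 0.988, 1.02 and 1.05 in Combo, 1.13, 1.06 and 1.09 at 24 h and 1.95, 1.93 and 1.98 at 8 h, against 1.05, 1.02 and 1.05 in DMSO. The 8 h libraries stood apart from the other 9 in both ratios.

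**Figure D4:**
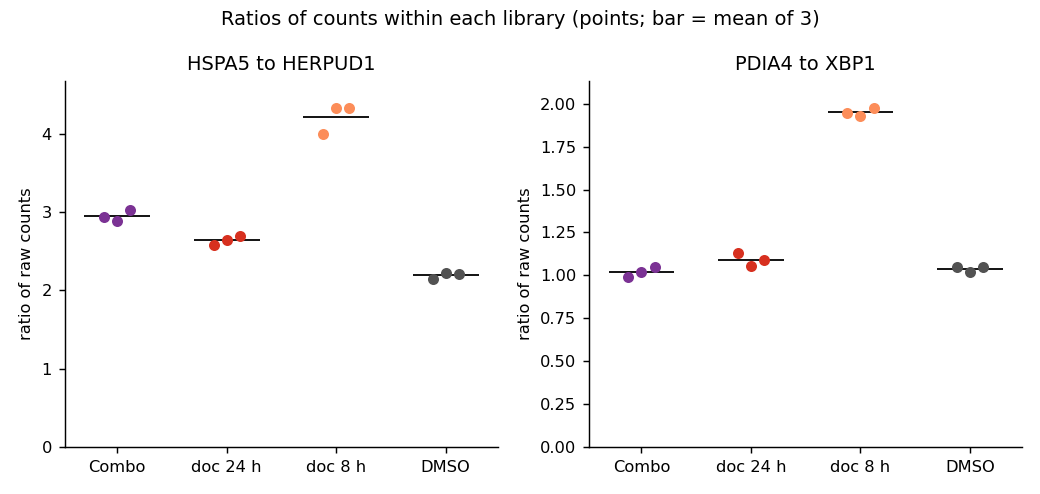
Ratios of raw counts (y axis, starting at 0) of HSPA5 to HERPUD1 and of PDIA4 to XBP1 within each library, with points for the libraries of Combo, docetaxel 24 h, docetaxel 8 h and DMSO and a bar for each group's mean. The 3 libraries of 8 h lie between 3.99 and 4.32 for the first ratio and between 1.93 and 1.98 for the second, above all other libraries.

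The rest of the pathway was described by 104 genes in 8 lists, all of which were tested. Together 28 were higher and 42 lower in Combo, 36 higher and 28 lower at 24 h of docetaxel and 39 higher and 31 lower at 8 h, each against DMSO. In Combo that is 26.9% higher and 40.4% lower, beside 31.4% and 31.4% of all genes. It is 34.6% and 26.9% at 24 h, beside 20.2% and 22.7%, and 37.5% and 29.8% at 8 h, beside 22.5% and 24.8%. The counts of the single lists below with TMM scaling stand against these same shares of all genes. Those with library totals, all at 8 h, stand against 2288 higher and 6784 lower of 17780 genes. The other sensors and their proteases, 5 genes, had 1 higher and 1 lower in Combo, none higher and 4 lower at 24 h and none higher and 4 lower at 8 h. EIF2AK3 (PERK) averaged 22.1 ± 2.32 CPM in Combo, 14.4 ± 0.407 CPM at 24 h and 14.7 ± 0.687 CPM at 8 h, against 20.9 ± 0.680 CPM in DMSO. It fell by 0.54 ± 0.08 at 24 h (adjusted p = 5.45e-06) and by 0.51 ± 0.08 at 8 h (adjusted p = 8.26e-06), and was 0.08 ± 0.07 in Combo (adjusted p = 0.355). ATF6 was -0.33 ± 0.06 at 24 h (adjusted p = 8.32e-05) and -0.20 ± 0.06 at 8 h (adjusted p = 0.00763), and 0.11 ± 0.06 in Combo (adjusted p = 0.0924). The ATF6 call at 8 h was lost without DMSO library B (adjusted p = 0.0898), and the Combo value passed without Combo library C (0.16, adjusted p = 0.0353). ATF6B, its paralogue, rose by 0.40 in Combo, where the site-2 protease gene MBTPS2 was -0.21, and MBTPS2 was -0.57 at 24 h and -0.29 at 8 h. The MBTPS2 call in Combo was lost without DMSO library A (adjusted p = 0.0557), DMSO library B (adjusted p = 0.0685), Combo library A (adjusted p = 0.065) or Combo library C (adjusted p = 0.0729). Against 24 h of docetaxel, where 32.1% of all genes were called higher, Combo had all 5 genes of this list higher, with EIF2AK3 at 0.62 and ATF6 at 0.44.

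Other ER chaperones and cochaperones, 11 genes, were split 4 higher and 4 lower in Combo, 5 and 3 at 24 h, and 6 and 1 at 8 h, where the split with library totals was 5 and 4. At 8 h MANF (0.68), CRELD2 (0.54) and DNAJB11 (0.48), soluble lumenal cofactors of folding, rose. HYOU1 encodes the large chaperone that exchanges nucleotides on BiP, and its promoter window also held an ERSE-II. It was -0.20 ± 0.06 in Combo (adjusted p = 0.00333), -0.39 ± 0.06 at 24 h (adjusted p = 8.02e-06) and -0.11 ± 0.06 at 8 h (adjusted p = 0.102). The 8 h value passed with library totals (-0.27, adjusted p = 0.000695) and without 8 h library B (-0.16, adjusted p = 0.0276). At 24 h PPIB (0.37) and DNAJB11 (0.34) were higher, and in Combo MANF (0.37), DNAJC1 (0.30) and SIL1 (0.29).

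Other disulfide enzymes, 13 genes, had 3 higher and 7 lower in Combo, 7 and 4 at 24 h and 5 and 3 at 8 h, where library totals gave 3 and 7. TXNDC5, a thioredoxin-domain isomerase, was lower under all treatments, at -0.99 in Combo, -1.18 at 24 h and -0.94 at 8 h. The oxidases ERO1B (0.83) and ERO1A (0.69), which reoxidise disulfide isomerases, rose in Combo. P4HB, the prototype isomerase, was -0.18 ± 0.05 in Combo (adjusted p = 0.00204), -0.05 ± 0.05 at 24 h (adjusted p = 0.417) and 0.09 ± 0.05 at 8 h (adjusted p = 0.116). The P4HB value at 8 h passed with DESeq2 (0.10, adjusted p = 0.04) and with only the 2 groups in the fit (0.10, adjusted p = 0.0472), and library totals turned its sign, to -0.06. PRDX4 (0.48) and PDIA3 (0.39) rose at 8 h. At 24 h QSOX1 was -0.44 and ERP44 0.33.

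Other genes of ER-associated degradation, 20 in all, had 5 higher and 7 lower in Combo, 5 and 3 at 24 h and 8 and 3 at 8 h, where library totals gave 5 and 9. SEL1L, the adaptor of the ligase HRD1, was -0.10 ± 0.07 in Combo (adjusted p = 0.217), -0.36 ± 0.07 at 24 h (adjusted p = 0.000343) and -0.46 ± 0.07 at 8 h (adjusted p = 1.89e-05). AUP1 (0.46) and DERL2 (0.39) rose at 8 h, DERL2 (0.43) and SELENOS (0.40) at 24 h, where EDEM3 was -0.39. In Combo UBE2G2 (-0.50), the ATPase VCP (-0.49) and EDEM3 (-0.47) fell.

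The translocon and signal peptidase list, 17 genes, had 6 higher and 5 lower in Combo, 9 and 1 at 24 h and 11 and 2 at 8 h, where library totals gave 7 and 3. Its named genes at 8 h were the channel subunits SEC61G (0.49) and SEC61B (0.48) and SSR4 (0.41), a subunit of the translocon-associated complex. SEC11C, a signal peptidase subunit, rose in Combo (0.56) and at 24 h (0.49), beside SEC61B (0.42) and SSR2 (0.37) at 24 h. SRPRB (-0.67) and SEC63 (-0.45) fell in Combo. N-glycan transfer and trimming, 12 genes, had 1 higher and 8 lower in Combo, 1 and 7 at 24 h and 4 and 3 at 8 h, where library totals gave 3 and 6. UGGT1, the folding sensor that reglucosylates glycoproteins, was -0.53 in Combo and -0.55 at 24 h. STT3B (-0.50) and MLEC (-0.48) also fell in Combo and GANAB (-0.42) and MOGS (-0.40) at 24 h, while DAD1 (0.39), RPN1 (0.33) and PRKCSH (0.28) rose at 8 h.

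Transport from ER to Golgi and retrieval, 15 genes, had 2 higher and 7 lower in Combo, 3 and 5 at 24 h and 5 and 8 at 8 h, where library totals gave 1 and 8. SEC24C, a cargo adaptor of the COPII coat, was -0.61 in Combo, -1.09 at 24 h and -0.80 at 8 h. SEC24A was lower in Combo (-0.58) and at 8 h (-0.43), and SEC24D at 24 h (-0.37) and 8 h (-0.77), with SEC23B (-0.45) at 24 h. KDELR3, a receptor that returns ER proteins, rose by 0.71 in Combo.

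**Figure D5:**
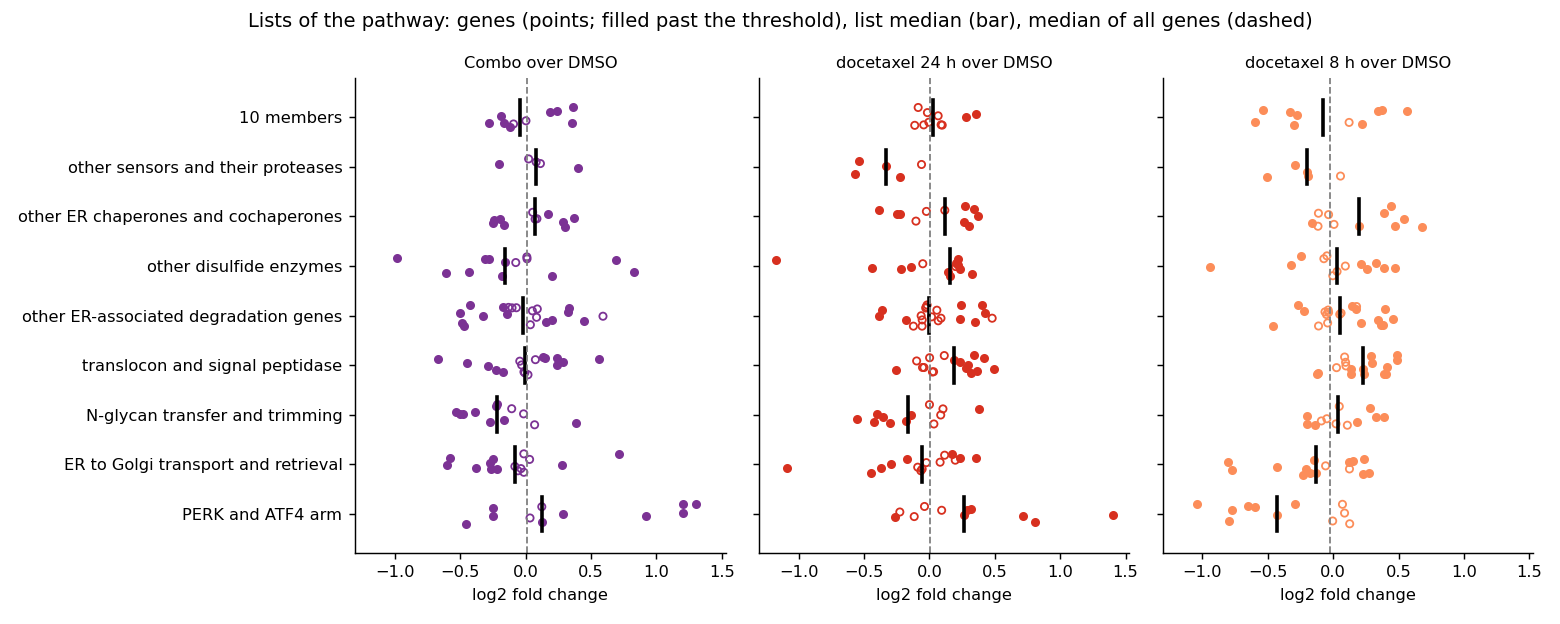
Log2 fold change (x axis) of the 10 genes and of the genes of 8 other lists for Combo, docetaxel 24 h and docetaxel 8 h over DMSO, with filled points past an adjusted p of 0.05, a bar for each list's median and a dashed line for the median of all genes. The PERK and ATF4 list has a median of 0.13 in Combo, 0.26 at 24 h and -0.43 at 8 h.

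The PERK and ATF4 arm, 11 genes, had 6 higher and 3 lower in Combo, 6 and 1 at 24 h, and none higher and 7 lower at 8 h. DDIT3, which encodes the transcription factor CHOP, averaged 20 CPM in Combo, 15.2 CPM at 24 h and 8.67 CPM at 8 h, against 8.70 CPM in DMSO. It rose by 1.20 ± 0.09 in Combo (adjusted p = 5.40e-11) and by 0.81 ± 0.09 at 24 h (adjusted p = 2.64e-07), and was -0.00 ± 0.09 at 8 h (adjusted p = 0.983). PPP1R15A, the phosphatase subunit that ends the PERK signal, rose by 1.30 in Combo and by 0.71 at 24 h. ATF4 itself was 0.29 ± 0.06 in Combo (adjusted p = 0.000153), 0.29 ± 0.06 at 24 h (adjusted p = 0.000296) and 0.13 ± 0.06 at 8 h (adjusted p = 0.0768). The ATF4 value at 8 h passed with DESeq2 (0.14, adjusted p = 0.0448) and without 8 h library B (0.17, adjusted p = 0.0238), and library totals turned its sign, to -0.03. NUPR1 rose by 1.21 in Combo and was -0.77 at 8 h, ATF3 rose by 1.40 at 24 h, and ASNS (-1.04) and TRIB3 (-0.80) fell at 8 h. Between the docetaxel times, all 11 genes were higher at 24 h than at 8 h, where 16.6% of all genes were called higher. ATF4 was the smallest of them, at 0.16 (adjusted p = 0.0305), and was lost with only the 2 groups in the fit (adjusted p = 0.0531), without 8 h library B (adjusted p = 0.152) or C (adjusted p = 0.142) and without 24 h library B (adjusted p = 0.0746) or C (adjusted p = 0.13). Leaving out single libraries gave 9 to 11 genes. Several genes of this list also answer to amino acid supply and other stresses.

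Among 11083 protein-coding genes with at least 5 CPM in some group, those with values most like the 3 log2 fold changes against DMSO of HSPA5 included INO80C, TMEM14A, RAP1A and KATNA1. Their root mean square differences over the 3 comparisons lay between 0.0086 and 0.0223. The nearest to XBP1 were ABTB2, BAZ2B, ZNF518B, GNE and CA5B (0.0146 to 0.0542), and the nearest to HERPUD1 were TMEM135, UPK2, USP53, ZNF134 and SESN2 (0.0621 to 0.0813). None of the other 9 genes was among the 5 nearest to HSPA5, XBP1 or HERPUD1.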

How the data were processed

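The values used are raw counts per gene, whole numbers in a table per library, as deposited by the authors. Per the submitters' processing notes, the tools were fastp, HISAT2 2.0.5 and DESeq2 and the build was hg38, with no role stated. Which program counted the reads, on which annotation and strand, is not given in the sources used here. The deposited series table was left unused. edgeR 4.0.16 (R 4.3.3) was run on the 12 libraries together, with 1 mean for each group and 8 residual degrees of freedom, TMM scaling (factors of 0.917 to 1.05) and the filterByExpr filter at a minimum count of 10. The quasi-likelihood test was run two-sided for 6 comparisons and tested on simulated data. The SE is the size of the fold change over the square root of F. Genes were matched to GENCODE release 29 (GRCh38), with exon length as the union of exons. Replicate pairs differed by more than counting noise (chi-square per degree of freedom 3.24 to 16.2). PCR copies were not marked.

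The 10 genes and the lists were chosen with earlier results of these data known. Named beside them are, per list and comparison with DMSO, up to 3 genes past the threshold with the largest log2 fold change. Also named are 7 genes whatever their change (EIF2AK3, ATF6, ATF4, DDIT3, HYOU1, SEL1L and P4HB). Their values are given in every comparison with DMSO, and only in part in the other comparisons. The rule also names the 5 nearest genes to HSPA5, XBP1 and HERPUD1. A gene that this rule names is not reported here. Alternatives were library totals, median-of-ratios factors, no mitochondrial genes, no filter, a replicate block, only the 2 groups, DESeq2 1.42.0 and leaving out each library. The planned protein features were not analysed here.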

Additional observations from a re-analysis of the deposited data

Results flagged for a closer look

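In 7 of the 10 genes the 2 docetaxel times differed by the test of that difference itself, edgeR's quasi-likelihood test of 24 h against 8 h, which is also the difference of their effects against the same DMSO libraries. Over all genes tested, 16.6% were called higher and 18.3% lower in that test. The log2 difference, 24 h minus 8 h, was 0.69 for HERPUD1, 0.58 for DNAJB9, 0.45 for XBP1 and 0.29 for ERN1. It was -0.47 for SDF2L1, -0.39 for PDIA4 and -0.22 for CALR. All 3 libraries at 24 h lay on the same side of all 3 at 8 h in each of these genes. This adds no support, since the genes were picked by a test on the same libraries. The share of all genes separated in this way was not computed. The mitochondrial share of counts was 6.39% ± 1.28 at 24 h and 8.55% ± 0.409 at 8 h (SD, n = 3 each), and its part in these differences was not tested. Without mitochondrial genes in the fit, all 7 kept their side of the threshold. That setting moved the median log2 fold change of all genes in this comparison by only -4e-04. It is therefore no test of the part of the mitochondrial share. With library totals CALR was lost (-0.09, adjusted p = 0.137), and ERN1 was lost without 8 h library A (adjusted p = 0.202) or 24 h library A (adjusted p = 0.176).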

How the results depend on the processing

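Counts of the 10 genes moved by more than 1.5 times in few settings. In Combo against docetaxel at 8 h, 5 genes were lower with no filter and 5 with DESeq2, and in Combo against 24 h, 3 were lower with only the 2 groups in the fit. Leaving out each library gave 3 to 4 higher and 2 to 5 lower in Combo against DMSO, 1 to 2 higher at 24 h against DMSO, 4 to 5 higher and 4 to 5 lower at 8 h against DMSO, 3 to 5 higher at 24 h against 8 h, 2 to 6 lower in Combo against 24 h and 3 to 5 lower in Combo against 8 h. Signs turned for small values, among them 0.13 for ATF4 and 0.09 for P4HB at 8 h against DMSO. In that comparison library totals moved the median of all genes by -0.16. The cause of single turns was not tested. With library totals HSP90B1 was -0.0324 at 8 h and -0.0359 in Combo against DMSO and 0.0763 at 24 h against 8 h, HSPA5 was 0.0177 and HYOU1 0.0304 in Combo against 8 h, ATF4 was -0.03 and P4HB -0.0619 at 8 h against DMSO, and EIF2AK3 was 0.10 at 24 h against 8 h. XBP1 in Combo against 24 h was 5e-04 with median-of-ratios factors and 6e-04 with DESeq2, ATF4 was 0.0040 with either, and DDIT3 at 8 h against DMSO was 0.0075 with either and 0.0036 with only the 2 groups. HSP90B1 in Combo against DMSO was -0.0354 with no filter, and CALR at 24 h was 0.0056 with only the 2 groups. Leaving out single libraries gave ranges across 0 of -0.0285 to 0.0253 for CALR and -0.1237 to 0.0338 for ERN1 at 24 h against DMSO, -0.0691 to 0.0402 for HSP90B1 and -7e-04 to 0.1503 for EIF2AK3 in Combo against DMSO, -0.0509 to 0.0218 for XBP1 and -0.0447 to 0.0303 for ATF4 in Combo against 24 h, -5e-04 to 0.0317 for HSPA5 and -0.061 to 0.0073 for EIF2AK3 at 24 h against 8 h, and -0.1321 to 0.097 for DDIT3 at 8 h against DMSO. No strong pairing by library letter was seen. Deviations of libraries with the same letter correlated between -0.134 and 0.143 over 18 pairs of libraries, with 1 over 0.1. Such values cannot show that a weak pairing is absent. With the replicate block, EDEM1 at 24 h against 8 h (0.17, adjusted p = 0.0229) and HSP90B1 in Combo against 8 h (-0.12, adjusted p = 0.0444) passed the threshold, and no other call on the 10 genes changed. Of the 10 genes ERN1 had the fewest counts, 802 to 1292 summed over a group's libraries. Alternatives for the lists and the other named genes were chosen after seeing the data.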
